A study of Homo sapiens with 9 samples.

Results

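The 50 genes described here carry human cells from G1 into S phase and copy their DNA. They were chosen by name, in 9 roles: the origin recognition complex, origin licensing and the MCM helicase, helicase activation, replicative polymerases, the sliding clamp and its loader, Okazaki fragment maturation, chromatin assembly, nucleotide supply and G1/S regulators. Each gene was read from a probe set (a group of short array probes that gives 1 signal) annotated to that single symbol. Where a gene had several, the 1 of highest mean over the 9 arrays stood for it. All 50 were measured, of 19775 genes with such a probe set, and all 50 passed the filter on dim signals, as did 12036 genes in all.

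RNA came from HEK293 cells, an established line of human embryonic kidney origin that carries adenovirus early genes. The wild type group had no treatment, the overexpression group had been transfected with a plasmid for human MOF (gene KAT8, an acetyltransferase that acts on histone H4 lysine 16), and in the knockdown group MOF had been depleted with small interfering RNA. Each group had 3 arrays, 1 per sample. All 3 groups were the same line in the same medium, and both treated groups had been transfected. The promoter of the plasmid, the sequence of the small interfering RNA and the time after transfection are not stated in the labels. The design text mentions cells given double-stranded RNA against EGFP as a control, but none of the 9 samples is labelled as such, so transfection and the change in MOF cannot be told apart. The labels do not say that replicates were separate cultures, and where they were not, the p-values reflect technical spread only.

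As background, the origin recognition complex marks start sites on DNA, and CDC6 and CDT1 load a ring of MCM2 to MCM7 proteins onto each of them in G1. CDC45 and the GINS complex then join the ring to make the active helicase, and polymerases held on DNA by the PCNA clamp copy both strands. Cyclin D and cyclin E kinases release E2F factors from RB proteins at the G1/S transition, and E2F factors switch on many of these genes. Adenovirus early proteins bind RB, so this control is altered in HEK293 cells.

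KAT8 followed the labels. Its signal was 2909.5, 3797 and 3249 in wild type, 4594, 4727 and 4763 after overexpression and 432, 706 and 517 after knockdown. Knockdown lowered it (log2 fold change -2.61, SE 0.169, limma adjusted p = 4.72e-05), and its log2 fold change of 0.51 after overexpression did not pass (limma adjusted p = 0.259). Of 8 markers of the line's kidney and neural character, 7 were measured, and their summed signal ran from 18257 to 18433 in wild type, 19039 to 20810 after overexpression and 18338 to 19372 after knockdown, with NEFL and NEFM bright in every group. PAX2, a kidney transcription factor among them, fell after knockdown (log2 fold change -1.07, limma adjusted p = 0.00513). The 4 measured blood cell markers summed to 279 to 712 over the 9 arrays, with 1 of them, HBB, above the filter. The 6 fibroblast and endothelial markers summed to 3039 to 3314 in wild type, 2902 to 3881 after overexpression and 2220 to 2823 after knockdown, of which COL1A1 made up most, and COL3A1 fell after knockdown (log2 fold change -1.01, limma adjusted p = 0.046). PDGFRA had 0.58 with all 3 knockdown arrays above wild type (limma adjusted p = 0.145), and was higher in knockdown than after overexpression (1.02, limma adjusted p = 0.0209). The part of any of these in the results was not tested. The 3 replicate 1 arrays stood apart from the other 6, whose 24 added poly-A control probe sets were 2.22-fold brighter with no overlap.

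Promoters of the members are shown first, for the 5 of the 6 genes past the threshold after knockdown that have a window in the RefSeq table. A window runs from 250 bases before to 50 bases after the gene's start, 5′ to 3′ on the gene's strand, in the build GRCh38.p14. Capitals mark E2F words (TTTCCCGC, TTTCGCGC, TTTGCCGC or TTTGGCGC on either strand) and CCAAT boxes (CCAAT on either strand). ORC3 lies at chr6:87589885-87590184 on the plus strand, CDT1 at chr16:88803539-88803838 on the plus strand, MCM6 at chr2:135876394-135876693 on the minus strand, GINS1 at chr20:25407423-25407722 on the plus strand and RRM2 at chr2:10122489-10122788 on the plus strand, the first of its 2 windows.
GINS1: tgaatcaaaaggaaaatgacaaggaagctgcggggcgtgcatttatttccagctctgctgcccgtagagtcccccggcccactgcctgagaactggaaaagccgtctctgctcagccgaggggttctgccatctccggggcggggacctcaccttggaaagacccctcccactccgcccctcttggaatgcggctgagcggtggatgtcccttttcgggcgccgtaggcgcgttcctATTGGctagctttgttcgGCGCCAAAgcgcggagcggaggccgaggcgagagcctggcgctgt
MCM6: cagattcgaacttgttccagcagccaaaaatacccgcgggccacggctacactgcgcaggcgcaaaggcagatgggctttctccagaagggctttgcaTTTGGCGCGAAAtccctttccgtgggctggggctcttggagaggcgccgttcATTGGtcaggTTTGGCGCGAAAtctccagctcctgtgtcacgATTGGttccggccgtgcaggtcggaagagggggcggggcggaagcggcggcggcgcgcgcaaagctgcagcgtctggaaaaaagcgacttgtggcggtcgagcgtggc
ORC3: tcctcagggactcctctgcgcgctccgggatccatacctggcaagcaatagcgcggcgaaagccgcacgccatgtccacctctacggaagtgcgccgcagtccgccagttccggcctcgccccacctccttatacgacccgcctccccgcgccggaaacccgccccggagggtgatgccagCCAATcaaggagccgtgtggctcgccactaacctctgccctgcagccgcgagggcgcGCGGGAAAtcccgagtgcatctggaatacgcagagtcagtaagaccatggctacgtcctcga
CDT1: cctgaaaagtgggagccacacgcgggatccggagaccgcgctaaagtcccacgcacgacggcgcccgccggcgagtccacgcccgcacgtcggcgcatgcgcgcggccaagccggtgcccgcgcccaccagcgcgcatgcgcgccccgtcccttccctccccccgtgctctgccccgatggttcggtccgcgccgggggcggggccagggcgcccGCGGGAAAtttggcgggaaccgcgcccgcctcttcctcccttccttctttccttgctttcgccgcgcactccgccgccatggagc
RRM2: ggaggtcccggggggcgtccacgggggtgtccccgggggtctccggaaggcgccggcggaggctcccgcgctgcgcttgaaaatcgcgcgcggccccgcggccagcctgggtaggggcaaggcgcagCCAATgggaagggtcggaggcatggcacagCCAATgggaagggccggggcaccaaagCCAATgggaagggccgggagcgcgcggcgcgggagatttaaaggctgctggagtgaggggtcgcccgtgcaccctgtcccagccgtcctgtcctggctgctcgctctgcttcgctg
GINS1, MCM6 and ORC3, which were lower after knockdown, each held an E2F word and a CCAAT box. In MCM6 2 pairs of overlapping E2F words lay at -152 and -148 and at -90 and -86 from the start. CDT1, which was higher, held 1 E2F word at -35 and no CCAAT box, and RRM2, also higher, held 3 CCAAT boxes at -123, -93 and -66 and no E2F word in these letters.

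Of the 43 members with a promoter window, 21 (48.8%) held an E2F word, beside 3.31% of 35116 windows in the table and 6.74% of 9889 tested genes with a window. A CCAAT box was found in 26 of 43 members (60.5%), beside 34.6% of all windows and 43.6% of those tested genes. The cell cycle homology region word TTTGAA, on either strand, was in 1 of 43 members (2.33%), beside 15.2% of all windows and 13.7% of those tested genes. None of the E2F and TTTGAA words holds CCAAT. Among members with a window, an E2F word was present in all 3 that fell after knockdown, in 1 of 2 that rose and in 17 of 38 (44.7%) that did not pass. A match is a description of the letters and not a binding site.

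Knockdown against wild type asked how the genes of S phase entry and DNA copying stood in cells depleted of MOF. Of the 50 members, 3 rose (CCND1, CDT1 and RRM2) and 3 fell (GINS1, ORC3 and MCM6), and 44 did not pass the test (limma, Benjamini-Hochberg adjusted over 27307 probe sets, threshold 0.05). The 6 fall in 5 of the 9 roles. CCND1 is the G1 cyclin D1, CDT1 loads the MCM ring, RRM2 is the small subunit of ribonucleotide reductase, GINS1 and MCM6 are parts of the helicase, and ORC3 is part of the origin recognition complex. That is 6% of members higher and 6% lower, 12% together. Among all probe sets tested, 6.82% were called higher and 8.89% lower. Among genes, with 1 probe set each as for the members, 6.7% were called higher and 12.7% lower. In this fit the members' share called higher lay near that of genes, and their share called lower lay below it. That order did not hold with the replicate number as a block, described below. There 18% of members were higher and 26% lower, both above the 12.9% and 20.4% of genes. In bulk RNA, fewer cells in S phase and less RNA of these genes per cell cannot be told apart.

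The members' log2 fold changes ran from -0.51 to 0.81 with a median of -0.09, against a median of -0.04 over 12036 genes. With replicate 1 of wild type left out the members' median was -0.0236, with replicate 2 of knockdown left out -0.0566, and with the mean over a gene's probe sets -0.0225. Their median size was 0.18 in either direction, against 0.23 over all genes. The 3 arrays of each group did not overlap for 19 members (38%), 13 lower and 6 higher, beside 35.2% of all probe sets. Only 2 members, CCND1 and CDT1, differed by 1.5-fold or more, and none by 2-fold. The median standard error was 0.10 on the log2 scale.

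**Figure D1:**
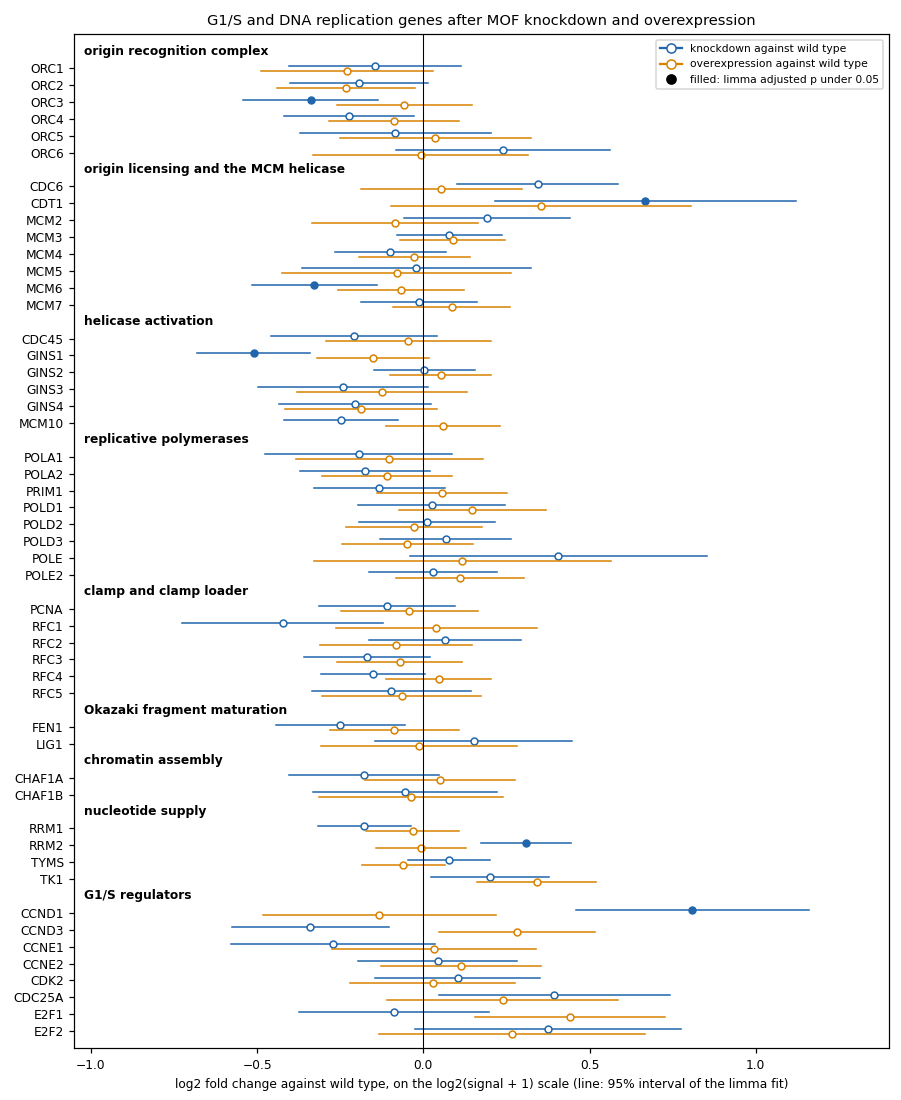
Log2 fold changes against wild type, on the log2(signal + 1) scale, for the 50 members grouped by role (knockdown in blue, overexpression in orange). Lines are 95% intervals of the limma fit, and filled points have a limma adjusted p under 0.05; the 6 filled points are all of knockdown, from -0.51 for GINS1 to 0.81 for CCND1.

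Deviations from the group means correlated between knockdown and wild type arrays of the same replicate number, at 0.362, 0.144 and 0.137 for replicates 1, 2 and 3. Wild type replicate 3 with knockdown replicate 2 gave 0.180, so pairing by number is not shown for replicates 2 and 3. The labels do not say that a number marks a pair. The comparison is also given with the number as a block. With the replicate block, 9 members rose and 13 fell after knockdown, 22 of 50 (44%), and all 6 genes above were among them. The background rose as well, to 13% of probe sets higher and 15% lower, and to 12.9% and 20.4% of genes. The 16 further genes are named below with their roles.

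**Figure D2:**
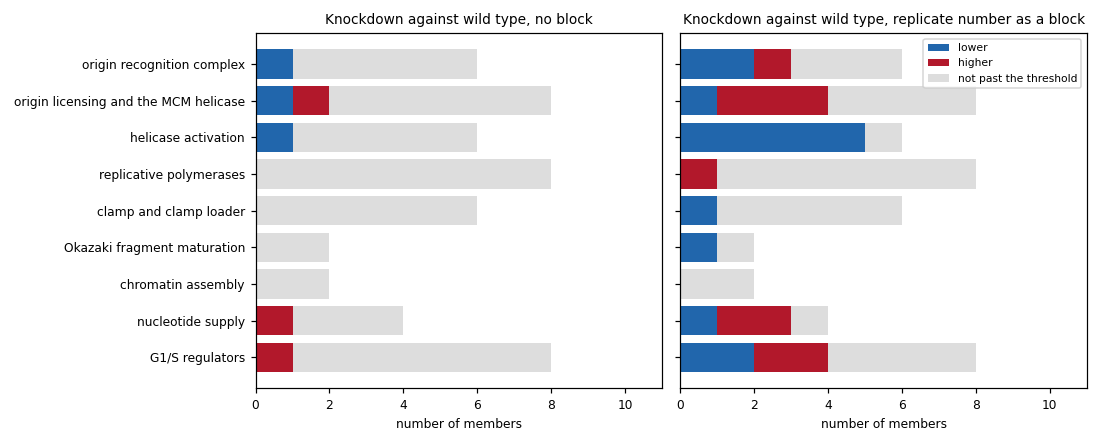
Members lower (blue), higher (red) and not past the threshold (grey) after knockdown against wild type in each of the 9 roles, without a block on the left and with the replicate number as a block on the right. Helicase activation went from 1 lower of 6 to 5 lower of 6, and the replicative polymerases from 0 of 8 to 1 higher of 8. Over all genes tested, the share lower went from 12.7% to 20.4% and the share higher from 6.7% to 12.9%.

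In the origin recognition complex, 1 of 6 subunits fell and 5 did not pass, with a median log2 fold change of -0.17. ORC3 had signals of 7683.5, 7743 and 7172 in wild type, 8083, 7110.1 and 6587 after overexpression and 5971, 5735 and 6157 after knockdown. All 3 knockdown arrays lay below all other 6. ORC3 fell 1.26-fold (log2 fold change -0.34, SE 0.0922, limma adjusted p = 0.0307). Leaving out any one of the 3 wild type or the 3 knockdown arrays ended that call, the highest limma adjusted p being 0.107 with wild type replicate 2 left out. ORC6 and ORC4 did not pass, with log2 fold changes of 0.24 and -0.22. Under the block ORC3 (0.00587) and ORC4 (0.021) fell and ORC6 (0.0303) rose, the values being limma adjusted p. ORC1, ORC2 and ORC5 passed neither fit.

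Among the 8 genes of origin licensing and the MCM ring, CDT1 rose, MCM6 fell and 6 did not pass. CDT1 had signals of 5296, 8074.5 and 8922 in wild type, 8028.5, 9736 and 10194 after overexpression and 9017, 11548 and 14693.5 after knockdown. The knockdown arrays lay above the wild type arrays, but by a small margin, since knockdown replicate 1 was just above wild type replicate 3. Means were 7431 ± 1897 (SD, n = 3) in wild type and 11753 ± 2844 (SD, n = 3) after knockdown. The rise was 1.59-fold (log2 fold change 0.67, SE 0.206, limma adjusted p = 0.0492, and 0.000161 with the replicate block). In both treated groups and in wild type the replicate 1 array was the lowest of its 3. Leaving out replicate 1 or 2 of wild type, or 2 or 3 of either treated group, ended the call without the block, the highest limma adjusted p being 0.176 with knockdown replicate 3 left out. It also ended with no filter on dim probe sets (limma adjusted p = 0.0721), with quantile normalization (0.0502) and in a fit on the 2 groups alone (0.0681). A second CDT1 probe set rose by 0.60 on the log2 scale (limma adjusted p = 0.027).

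MCM6 had signals of 34290, 38251 and 39039 in wild type, 33137, 37816 and 35551.5 after overexpression and 30715, 31680 and 26624 after knockdown. All 3 knockdown arrays were the lowest of the 9. MCM6 fell 1.25-fold (log2 fold change -0.33, SE 0.0859, limma adjusted p = 0.0263). The call ended when replicate 2 or 3 of wild type or replicate 3 of knockdown was left out (limma adjusted p up to 0.0965, with the last), and with no filter (0.0587). A dimmer MCM6 probe set had a log2 fold change of -0.61 that did not pass (limma adjusted p = 0.107).

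The other subunits of the ring did not pass without the block. MCM2 had signals of 35478, 28117 and 30595 in wild type, 33209.7, 26249 and 29291.5 after overexpression and 40308.5, 34471 and 32666 after knockdown. The groups overlapped, and in each group replicate 1 was the brightest. Its log2 fold change after knockdown was 0.19 (SE 0.113, limma adjusted p = 0.283, and 0.0318 with the replicate block, where it rose). MCM3, MCM4, MCM5 and MCM7 had log2 fold changes of 0.08, -0.10, -0.02 and -0.01 and passed neither fit. CDC6, the loader that works with CDT1, had 0.34 (limma adjusted p = 0.0571, and 0.00984 with the replicate block, where it rose). Its signals were 5409, 5501 and 4893 in wild type, 6177, 5100.5 and 5166 after overexpression and 7229, 5901 and 6978 after knockdown, and the knockdown arrays lay above the wild type arrays. A second CDC6 probe set, nearly as bright, had a log2 fold change of only 0.04 (limma adjusted p = 0.772, without the block).

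Helicase activation had the lowest median of the 9 roles, a log2 fold change of -0.22 over 6 genes, with 1 lower and 5 not past the test. GINS1, a subunit of the GINS complex, had the smallest adjusted p of all members. Its signals were 16180.4, 15954.5 and 16221 in wild type, 13664, 15666 and 14293 after overexpression and 10856, 12042 and 11071 after knockdown. The 3 groups did not overlap, with wild type highest and knockdown lowest. Means were 16118.5 ± 143.5 (SD, n = 3) in wild type and 11323 ± 632 (SD, n = 3) after knockdown, a fall of 1.42-fold (log2 fold change -0.51, SE 0.0769, limma adjusted p = 0.002). With 3 arrays against 3, an exact two-sided permutation test cannot give a p below 0.1. Any gene whose groups do not overlap reaches that value, so it adds nothing here. The call held with each of the 9 arrays left out in turn, with a limma adjusted p of at most 0.0119.

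The other 3 GINS genes gave log2 fold changes of 0.00 (GINS2), -0.24 (GINS3) and -0.21 (GINS4) and did not pass. A much dimmer GINS2 probe set, close to the filter, rose by 1.35 (SE 0.37, limma adjusted p = 0.0319), and a second GINS3 probe set had -0.31 (0.0752). With the mean over a gene's probe sets GINS2 was called higher and GINS3 lower. CDC45, which joins GINS on the ring, had -0.21. MCM10, a firing factor, had signals of 8510.2, 7967 and 8357 in wild type, 8969, 8782 and 8149.8 after overexpression and 7193, 6697.5 and 7014 after knockdown. Its knockdown arrays were the lowest 3 of the 9, and it missed the threshold (log2 fold change -0.25, SE 0.0779, limma adjusted p = 0.0521). Under the block GINS1 (0.000126), MCM10 (0.0128), GINS3 (0.0383), GINS4 (0.0398) and CDC45 (0.045) fell, the values being limma adjusted p, and GINS2 did not pass.

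None of the 8 replicative polymerase genes passed (limma, 0 at an unadjusted p under 0.05), and their median log2 fold change was 0.02. The values ran from -0.19 for POLA1, the catalytic subunit of the priming polymerase, to 0.41 for POLE, that of the leading strand polymerase. POLE rose with the replicate block (limma adjusted p = 0.0227). The DNA polymerase delta genes POLD1, POLD2 and POLD3 lay between 0.01 and 0.07.

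None of the 6 genes of the clamp and clamp loader passed (limma, 1 at an unadjusted p under 0.05). PCNA, the clamp itself and a common S phase marker, had signals of 42444, 46213 and 51744.5 in wild type, 41544, 51087 and 43793 after overexpression and 41749, 46039 and 42055 after knockdown. The 3 groups overlapped. Its log2 fold change was -0.11 (95% interval -0.32 to 0.10, limma adjusted p = 0.469). RFC1, the large subunit of the loader, had signals of 5939, 4979 and 5151 in wild type, 6245, 5346 and 4946 after overexpression and 4859, 3682 and 3534 after knockdown. The knockdown arrays lay below the other 6, and within each group replicate 1 was the brightest. The log2 fold change of -0.42 (SE 0.138) missed the threshold (limma adjusted p = 0.0599, and 0.00146 with the replicate block, where it fell). A second RFC1 probe set fell by 0.53 on the log2 scale (limma adjusted p = 0.00932). RFC2, RFC3, RFC4 and RFC5 ran from -0.17 to 0.07 and passed neither fit.

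For Okazaki fragments, FEN1, the flap nuclease, had a log2 fold change of -0.25 (limma adjusted p = 0.079, and 0.0349 with the replicate block, where it fell), and LIG1, the ligase, 0.15. A second FEN1 probe set had -0.05 (limma adjusted p = 0.75, without the block). The chromatin assembly factor genes CHAF1A and CHAF1B had -0.18 and -0.06 and passed neither fit.

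Of the 4 nucleotide supply genes, RRM2 rose and 3 did not pass. RRM2 had signals of 39179, 36976 and 40313 in wild type, 39459.5, 38126 and 38164 after overexpression and 50526, 47040.4 and 46719.7 after knockdown. The 3 knockdown arrays were the highest of the 9, and wild type and overexpression overlapped. The rise was 1.24-fold (log2 fold change 0.31, SE 0.0618, limma adjusted p = 0.00797) and held with each array left out (limma adjusted p at most 0.0448). A second RRM2 probe set had a log2 fold change of 0.25 that did not pass (limma adjusted p = 0.0954). RRM1, the large subunit of the same enzyme, had a log2 fold change of the opposite sign, -0.18 (limma adjusted p = 0.0835, and 0.042 with the replicate block, where it fell). TK1, a thymidine kinase of S phase, had 0.20 (limma adjusted p = 0.12, and 0.0279 with the replicate block, where it rose), and TYMS, the thymidylate synthase, 0.08. For all 4 genes the knockdown and wild type arrays did not overlap, as was so for 35.2% of all probe sets.

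Of the 8 G1/S regulators, CCND1 rose and 7 did not pass. CCND1 had signals of 984, 876 and 816.5 in wild type, 793, 754 and 893 after overexpression and 1623.5, 1830.1 and 1276.5 after knockdown. The knockdown arrays were the highest 3 of the 9. Means were 892 ± 85.1 (SD, n = 3) in wild type and 1577 ± 279.8 (SD, n = 3) after knockdown, a rise of 1.75-fold (log2 fold change 0.81, SE 0.159, limma adjusted p = 0.00742). It held with each array left out (limma adjusted p at most 0.0357), and the second CCND1 probe set rose as much (log2 fold change 0.81, limma adjusted p = 0.00513).

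CCND3, cyclin D3, had signals of 6846, 6072 and 6157 in wild type, 8567, 6991 and 7668 after overexpression and 5148, 4481 and 5464 after knockdown. The groups did not overlap, with overexpression highest and knockdown lowest. Its log2 fold change after knockdown was -0.34 (SE 0.107, limma adjusted p = 0.053, and 0.00496 with the replicate block, where it fell). CCNE1, cyclin E1, fell with the replicate block (-0.27, limma adjusted p = 0.0374, against 0.213 without). CDC25A, the phosphatase that activates the kinase CDK2, rose with the block (0.39, limma adjusted p = 0.0136, against 0.117 without). Its second probe set rose without the block too (0.45, limma adjusted p = 0.0145), and the third did not pass (0.24, 0.401). CCNE2, CDK2, E2F1 and E2F2 had log2 fold changes of 0.04, 0.10, -0.09 and 0.37 and passed neither fit.

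**Figure D3:**
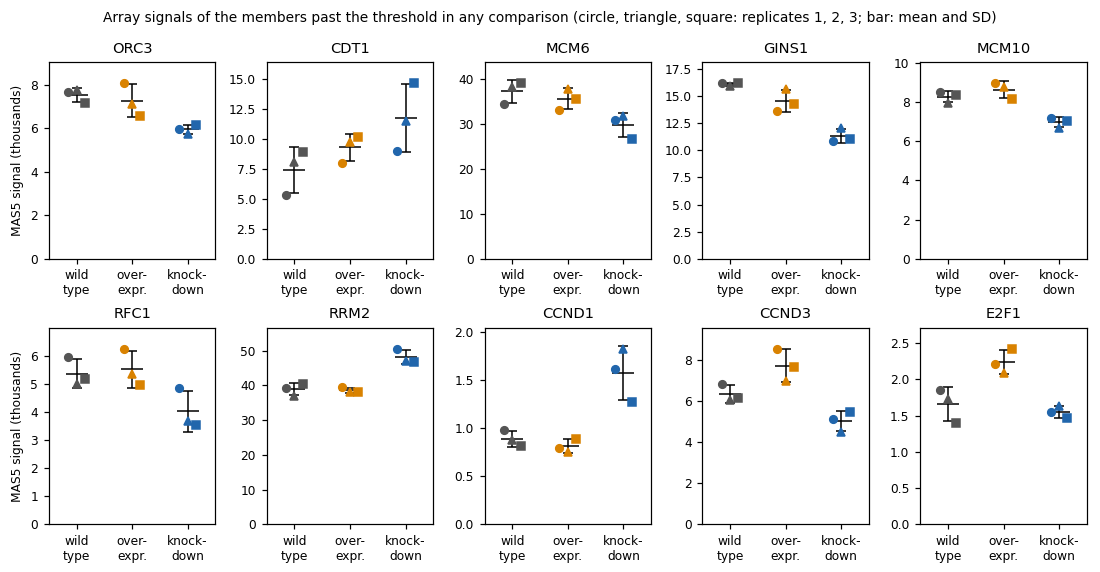
Signals (linear axis from 0) of the 10 members past the threshold in any comparison, on each of the 9 arrays. Symbols mark replicates 1, 2 and 3, and bars the mean and SD (n = 3); RRM2 and CCND1 are highest, and ORC3, MCM6, GINS1, MCM10, RFC1 and CCND3 lowest, in the 3 knockdown arrays.

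The count after knockdown moved with single arrays. It was 3 without wild type replicate 2 and 3 without knockdown replicate 3, and 5 to 9 without each of the other 7. The share of all probe sets called moved too. It was 15.7% with all arrays, 8.1% and 8.32% without these arrays in turn, and 8.86% to 16.9% without each of the others. Within replicates 2 and 3 alone, a fit added after seeing the data, 5 members rose and 6 fell, including all 6 named above. That was 22% of members, beside 19.1% of all probe sets. In replicate 1 the 6 differences had the same sign, from -0.58 for GINS1 to 0.77 for CDT1. The 6 genes were picked in a fit that held all these arrays, and their knockdown and wild type arrays did not overlap. The signs were therefore fixed beforehand, and neither subset is separate support.

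**Figure D4:**
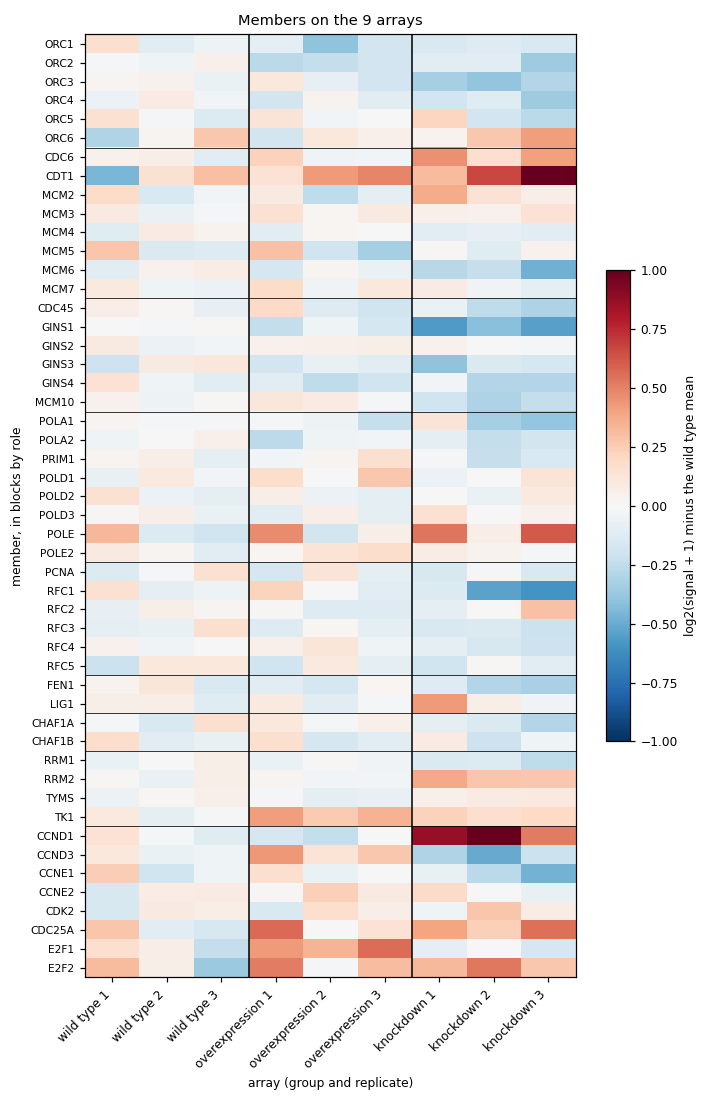
Log2(signal + 1) of the 50 members on the 9 arrays, less each member's wild type mean, in blocks by role (red higher, blue lower, colour scale from -1 to 1). CCND1 and CDT1 stand out in red and GINS1 and RFC1 in blue in the knockdown arrays, and CDT1 is low in wild type replicate 1.

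Overexpression against wild type asked how the same genes stood in cells given the MOF plasmid. None of the 50 members passed the test (limma, 0 higher and 0 lower, with 4 at an unadjusted p under 0.05). Among all probe sets 0.319% were called higher and 0.157% lower, so few calls would be found among 50 genes at the background. The members' log2 fold changes ran from -0.23 to 0.44. Their median was -0.02, turning to 0.01 with quantile normalization or without wild type replicate 1 and to 0.0046 without overexpression replicate 3, against 0.00 over all genes. Their median size was 0.08, against 0.14 over all genes, again not matched for brightness, and none reached 1.5-fold. The 3 arrays of each group did not overlap for 7 members (14%), beside 17.6% of all probe sets.

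By size the differences of E2F1, CDT1, TK1 and CCND3 came first. E2F1, the transcription factor of S phase genes, had signals of 1853, 1726.5 and 1395 in wild type, 2206, 2089 and 2424 after overexpression and 1546.5, 1639 and 1469 after knockdown. The overexpression arrays were the highest 3, and wild type and knockdown overlapped. Its log2 fold change was 0.44 (SE 0.13, limma adjusted p = 0.21). CDT1 had 0.35 with overlapping groups (limma adjusted p = 0.529, and 0.0398 with the replicate block), while its second probe set had -0.10 (0.844).

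TK1 had signals of 8147, 7161.5 and 7576 in wild type, 10163, 9113 and 9689.9 after overexpression and 8926.5, 8564 and 8764 after knockdown. The groups did not overlap, with overexpression highest and wild type lowest. Its log2 fold change was 0.34 (SE 0.081, limma adjusted p = 0.113). It rose with the replicate block (limma adjusted p = 0.0118) and with a term for the replicate 1 arrays (0.0101), and a second TK1 probe set had 0.33 (0.384). In this comparison replicate numbers did not meet the bound for pairing. CCND3 had 0.28 (limma adjusted p = 0.319), with all 3 overexpression arrays above wild type. ORC2, GINS1, GINS4 and POLA1 were the 4 members whose overexpression arrays all lay below wild type, with log2 fold changes of -0.23, -0.15, -0.19 and -0.10. PCNA had -0.04 (95% interval -0.25 to 0.16) and MCM2 -0.09 (95% interval -0.33 to 0.16).

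Knockdown against overexpression sets the treated groups side by side, and it shares its knockdown arrays with the first comparison and its overexpression arrays with the second. Of 50 members, 2 were higher in knockdown (CCND1 and RRM2) and 5 lower (CCND3, E2F1, RFC1, GINS1 and MCM10), and 43 did not pass. That is 14% of members, 4% higher and 10% lower. Of all probe sets 5.75% were called higher and 8.76% lower, and of genes, with 1 probe set each, 6.22% and 12.1%. The median log2 fold change was -0.07 (-0.038 without knockdown replicate 3), against -0.05 over all genes, and the values ran from -0.62 to 0.94. The arrays did not overlap for 16 members (32%), beside 33.7% of all probe sets. With the replicate block 6 were higher and 9 lower (30%), beside 12.1% and 14.7% of probe sets. Of genes, with 1 probe set each, 12.9% and 19.8% were called with the block (32.6% together).

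Cyclins D1 and D3 differed in opposite directions. CCND1 was 1.92-fold higher in knockdown than after overexpression (log2 fold change 0.94, SE 0.159, limma adjusted p = 0.00373) and CCND3 1.54-fold lower (-0.62, SE 0.107, limma adjusted p = 0.00404). GINS1 was 1.28-fold lower (-0.36, limma adjusted p = 0.0111) and RRM2 1.25-fold higher (0.32, limma adjusted p = 0.00721). These 4 calls held with each array left out (limma adjusted p at most 0.0443). A second RRM2 probe set had a log2 fold change of 0.01, since it was 0.24 after overexpression and 0.25 after knockdown against wild type, neither past the test, and the mean over both probe sets missed the threshold (limma adjusted p = 0.0948).

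E2F1 was 1.44-fold lower in knockdown (-0.53, SE 0.13, limma adjusted p = 0.021), as its overexpression arrays were the brightest. That call was lost without overexpression replicate 3 or knockdown replicate 3 (limma adjusted p up to 0.0887 without the former), and its second probe set had -0.14 (limma adjusted p = 0.502), the mean over both giving 0.057. MCM10 was 1.24-fold lower (-0.31, SE 0.0779, limma adjusted p = 0.0233), which was lost without overexpression replicate 1 or 2 or knockdown replicate 2 or 3 (up to 0.0944 without knockdown replicate 2) and with the mean over its probe sets (0.223). RFC1 was 1.38-fold lower (-0.46, SE 0.138, limma adjusted p = 0.0459), which was lost without any array but wild type replicate 1 or knockdown replicate 1 (up to 0.16 without knockdown replicate 3), with no filter (0.0671) and in a fit on the 2 groups alone (0.0675). Its second probe set was lower too (-0.58, limma adjusted p = 0.0065). The count was 4 without knockdown replicate 3 and 5 to 7 without each of the other 8 arrays. Of all probe sets, 7.89% passed without knockdown replicate 3 and 7.47% to 15.3% without each of the others, beside 14.5% with all arrays.

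When the replicate number was a block, 8 further members passed between the treated groups. ORC6, CDC6, CDT1 and MCM2 were higher in knockdown, by 0.25, 0.29, 0.31 and 0.28 on the log2 scale. ORC3, MCM6, RFC4 and CCNE1 were lower, with -0.28, -0.26, -0.20 and -0.30. CDT1's second probe set was higher without the block as well (0.70, limma adjusted p = 0.0141). CDC6's second probe set had 0.10 without the block (limma adjusted p = 0.493).

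**Figure D5:**
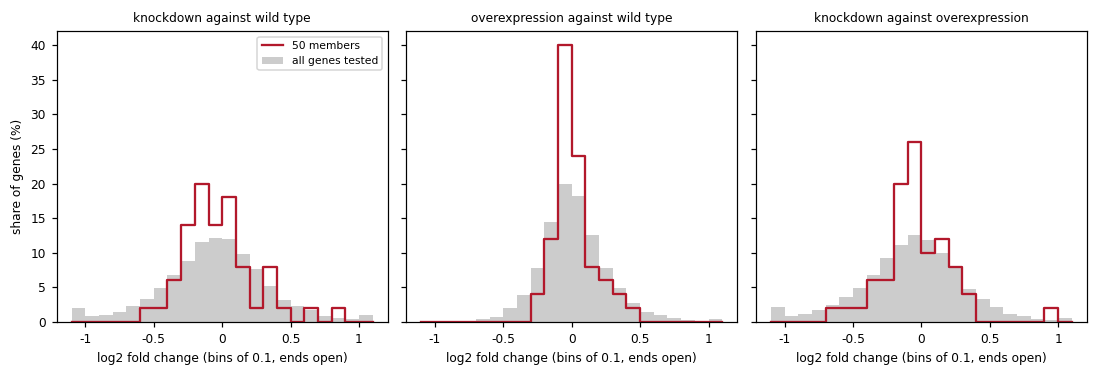
Share of genes in bins of log2 fold change 0.1 wide, with open ends, for the 3 comparisons: all 12036 genes tested as grey bars and the 50 members as a red line. No member lies beyond -1 or 1, and in overexpression against wild type the members run from -0.23 to 0.44.

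Different probe sets of a member did not always follow each other. The 50 members had 101 probe sets, of which 93 were tested, and 31 members had more than 1. All tested probe sets had the same sign for 23 of these 31 in knockdown against wild type, for 15 in overexpression against wild type and for 24 in knockdown against overexpression.

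Of 73 other genes of replication and G1/S control, listed beside the members, 70 were tested. After knockdown 13 rose and 5 fell (18.6% and 7.14%), after overexpression 1 rose and 0 fell (limma, 8 at an unadjusted p under 0.05), and between knockdown and overexpression 10 were higher and 6 lower in knockdown. Over all genes tested, 6.7% were called higher and 12.7% lower after knockdown, 0.457% and 0.174% after overexpression, and 6.22% and 12.1% between the treated groups. The medians were 0.03, 0.01 and 0.03 on the log2 scale. With the replicate block 19 rose and 12 fell after knockdown (27.1% and 17.1%, beside 12.9% and 20.4% of all genes). Between knockdown and overexpression the block gave 16 higher and 14 lower (22.9% and 20%, beside 12.9% and 19.8%), and after overexpression 5 higher and 2 lower (7.14% and 2.86%, beside 2.59% and 2.36%). By list, the block gave 3 higher and 2 lower of 15 after knockdown, 5 and 3 of 17, 4 and 3 of 13, 5 and 3 of 20, and 2 and 1 of 5, in the order in which the lists follow.

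Among 15 kinases, licensing controls and firing factors, 2 rose after knockdown. RECQL4, a helicase that acts in origin firing, had signals of 2942, 1989.7 and 2094 in wild type, 3490.5, 2460.5 and 2604 after overexpression and 5896.5, 4506 and 5520.5 after knockdown. The knockdown arrays were the highest 3, and the rise was 2.29-fold (log2 fold change 1.19, SE 0.178, limma adjusted p = 0.00195), larger than that of any member. TICRR, which helps CDC45 onto the ring, rose by 0.53 (SE 0.144, limma adjusted p = 0.0307), a call lost without replicate 2 or 3 of wild type or knockdown replicate 1 or 2 (up to 0.103 without wild type replicate 3). Both were also higher in knockdown than after overexpression (0.90, limma adjusted p = 0.0076, and 0.57, 0.0242), the latter lost without overexpression replicate 2 or 3 or knockdown replicate 1 or 2 (up to 0.0828).

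Among 17 remaining polymerase, primase and clamp factors, 1 rose and 2 fell after knockdown. RNASEH2C, a subunit of the nuclease that removes RNA from DNA, rose by 0.68 (SE 0.0911, limma adjusted p = 0.00108), with signals of 11316, 10284 and 10569 in wild type and 18667, 16419 and 16398 after knockdown. RNASEH2B, another subunit of the same enzyme, fell by 0.51 (limma adjusted p = 0.024), lost without replicate 2 or 3 of wild type or knockdown replicate 2 or 3 (up to 0.0901) and with the mean over its probe sets (0.633). RPA3, of the protein that coats single-stranded DNA, fell by 0.34 (limma adjusted p = 0.00875). Knockdown against overexpression gave 0.71 for RNASEH2C (limma adjusted p = 0.000872) and -0.56 for RNASEH2B (0.0172). The latter was lost without overexpression replicate 2 or 3 or knockdown replicate 3 (up to 0.0709). POLE3 was higher by 0.32 (0.0374), lost without replicate 2 or 3 of wild type, overexpression replicate 1 or 3 or knockdown replicate 2 or 3 (up to 0.127).

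Among 13 genes of nucleotide supply and replication-coupled chromatin, 3 rose and 1 fell after knockdown. SLBP, which binds histone messenger RNA, rose by 0.33 (limma adjusted p = 0.0141), lost without replicate 2 of wild type or knockdown replicate 2 (up to 0.0664). ASF1B, a histone chaperone, rose by 0.46 (limma adjusted p = 0.0347), lost without replicate 2 or 3 of wild type, overexpression replicate 3 or any knockdown array (up to 0.117). NASP, another histone chaperone, fell by 0.28 (limma adjusted p = 0.0293), lost without replicate 1 or 2 of wild type or knockdown replicate 2 or 3 (up to 0.117) and with the mean over its probe sets (0.47). In knockdown against overexpression NASP was lower (-0.41, limma adjusted p = 0.00591) and SLBP higher (0.25, 0.0464), the latter lost without replicate 2 or 3 of wild type, overexpression replicate 1 or 3 or knockdown replicate 2 or 3 (up to 0.177).

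Among 20 further G1/S cyclins, kinases and E2F and RB family genes, 5 rose and 1 fell after knockdown. CCND2, cyclin D2, rose with CCND1, by 0.53 (SE 0.119, limma adjusted p = 0.0142). Its signals were 6614, 7439.6 and 7195 in wild type, 6339, 6435 and 7534 after overexpression and 8591, 10470.3 and 11735 after knockdown, and the call was lost without knockdown replicate 2 or 3 (up to 0.0598). E2F7, a repressor of the E2F family, rose by 0.47 (limma adjusted p = 0.00425), lost with the mean over its probe sets (0.16), and TFDP2, a partner of E2F factors, fell by 0.55 (limma adjusted p = 0.00986). Between knockdown and overexpression E2F7 (0.46, limma adjusted p = 0.00495) and CCND2 (0.59, 0.00824) were higher and E2F3 lower (-0.50, 0.00574).

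Of 5 inhibitors of cyclin-dependent kinases, 2 rose and 1 fell after knockdown. CDKN1A, the inhibitor p21, had signals of 5111, 4562 and 4289 in wild type, 7446, 6598.5 and 7126 after overexpression and 6514.5, 5929 and 5939 after knockdown. The groups did not overlap, with wild type lowest and overexpression highest. It rose after overexpression (0.60, SE 0.0951, limma adjusted p = 0.0202), where it was the 1 gene of the 70 to pass, and after knockdown (0.40, limma adjusted p = 0.0176). The first call was lost without replicate 2 or 3 of wild type or overexpression replicate 1 or 3 (up to 0.132) and the second without wild type replicate 2 or 3 or knockdown replicate 1 (up to 0.0652). CDKN1B, p27, rose after knockdown by 0.45 (limma adjusted p = 0.0213), lost without replicate 1 or 2 of wild type or knockdown replicate 2 or 3 (up to 0.0787). CDKN1C, p57, fell by 0.69 (limma adjusted p = 0.0129), lost without replicate 3 of wild type (0.0501) and with the mean over its probe sets (0.188). Between knockdown and overexpression CDKN1B was higher (0.55, limma adjusted p = 0.00853) and CDKN1C lower (-0.52, 0.0444), the latter lost without any array but overexpression replicate 2 (up to 0.133).

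Further settings ended some calls of these other pathway genes. In knockdown against wild type these were no filter for ASF1B (limma adjusted p = 0.053) and NASP (0.0648), and a fit on the 2 groups alone for TICRR (0.0512). In overexpression against wild type the latter fit ended the call of CDKN1A (0.0881). In knockdown against overexpression the mean over a gene's probe sets ended those of RNASEH2B (0.642), E2F7 (0.27), NASP (0.197), RNASEH2C (0.0861), TICRR (0.0505) and CDKN1C (0.261). No filter ended those of SLBP (0.101), POLE3 (0.0667) and CDKN1C (0.0796), and a fit on the 2 groups alone those of SLBP (0.0721), POLE3 (0.0541) and CDKN1C (0.0724). CDKN1C also missed the threshold with quantile normalization (0.0543) and in replicates 2 and 3 alone (0.198).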

How the data were processed

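Total RNA of 9 HEK293 samples was measured on 9 oligonucleotide arrays, 1 per sample, per the labels. The authors deposited 1 linear intensity per probe set and array, and the submitters' processing notes name MAS5 as the tool. Its version and settings: not given in the sources used here. The 2% trimmed mean was 1500.2 on each array, so the values do not show changes in total RNA per cell. All members and gene lists were chosen with earlier results of these data known, and the counts in the lists are descriptions.

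Signals were turned into log2(signal + 1), and fold changes are on that scale. After 62 control probe sets were left out, 27307 of 54675 probe sets whose mean log2 signal reached the median (7.564, a signal of 188) were tested in 1 fit over 9 arrays with limma 3.58.1 in R 4.3.3 (lmFit, eBayes with a trend, 6 residual degrees of freedom, two-sided, Benjamini-Hochberg adjusted over all probe sets tested, threshold 0.05). The fit was tested on simulated data with independent noise on each array. These held no difference shared by the replicate 1 arrays, so the test does not cover such a difference. With 3 arrays per group, precision is limited by their number. Probe sets were named from the platform annotation (41097 with 1 symbol, 1801 with several, 11777 with none, not named), and its symbols matched a RefSeq table. Named were all members, per-array values for those past the threshold and for PCNA, CCND1 and MCM2, up to 3 other pathway genes of smallest p per list and comparison, CDKN1A and KAT8. Per-array values of CDC6, TK1 and the other pathway genes were chosen after their values were seen. Listed genes with no probe set of a single symbol were left out. Promoter windows and their letters come from RefSeq (GRCh38.p14), for 43 of 50 members. GINS4, MCM5, CDK2, POLD3, CCND1, MCM4 and CCNE2 have none there. Figures were drawn with matplotlib 3.10.9.

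No arrays were identical, and within a group their log2 signals correlated at 0.973 to 0.985. Pairing was checked by correlating deviations from the group means. Arrays with the same replicate number gave 0.106 to 0.362 for knockdown with wild type or overexpression, all over 0.1, so the labels' replicate number was also fitted as a block. Wild type and overexpression replicate 3 gave 0.083. Arrays of different numbers gave -0.377 to 0.284, the highest being wild type replicate 3 with overexpression replicate 2. The labels do not say that a number marks a pair. Alternatives were a pseudocount of 16, no filter, quantile normalization, the block, a term for the replicate 1 arrays, each array left out, a fit on 2 groups, the mean over a gene's probe sets and, added after seeing the data, replicates 2 and 3 alone.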

Additional observations from a re-analysis of the deposited data

How the results depend on the processing

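Each array left out in turn gave 3 to 9 members past the threshold in knockdown against wild type, 0 to 0 in overexpression against wild type and 4 to 7 in knockdown against overexpression (6, 0 and 7 with all arrays). Of all probe sets, 8.1% to 16.9%, 0.0916% to 0.355% and 7.47% to 15.3% then passed. The members' median log2 fold changes then ran from -0.086 to -0.0236, from -0.0234 to 0.0107 and from -0.0836 to -0.038. With the replicate block the counts were 22, 2 and 15, and with a term for the replicate 1 arrays 22, 1 and 15. The shares of all probe sets were 28%, 3.74% and 26.9% with the block and 28.2%, 4.06% and 27.2% with that term. Of genes, with 1 probe set each, 33.4%, 4.95% and 32.6% passed with the block. The 2 members under the block in overexpression against wild type were CDT1 and TK1, both higher. For that comparison the replicate numbers did not meet the bound for pairing. Replicates 2 and 3 alone, added after seeing the data, gave 11 in knockdown against wild type and 11 in knockdown against overexpression. That was 22% of members in each, beside 19.1% and 18% of all probe sets. The mean over a gene's tested probe sets gave 11 members in knockdown against wild type, with a median of -0.0225, and a median of 0.0034 in overexpression against wild type, where quantile normalization gave 0.0105. Those 11 were 22% of members, beside 21.1% of all genes and probe sets without a single symbol in that fit. The cause of these differences in count and median was not tested. Of the values for single genes under the alternatives, 1402 kept their side of the threshold, 59 newly passed it and 120 no longer did. The genes were KAT8, the members past the threshold in any comparison, PCNA, MCM2, TK1, CDC6 and the named other pathway genes. Each was counted in every comparison, also where it had not passed and so had no call to lose. The 1402 therefore do not measure how often calls held. In 28 of the values the sign turned, all of reported log2 sizes up to 0.0858 and past the threshold in neither setting. The number of arrays and the dimness of a probe set, not read depth, limit what can be seen.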

Other observations

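Some members also differed between the replicate 1 arrays and the other 6, with the group kept in the model. With a term for the replicate 1 arrays, 16 of 50 members (32%) passed the test for that term, as did 19.2% of all probe sets (limma adjusted p under 0.05). In replicate 1, 11 members were higher and 5 lower. CDT1, the licensing factor, had a log2 difference of -0.51 (limma adjusted p = 0.00126) and ORC6, of the origin recognition complex, of -0.34 (0.00403). POLE, the leading strand polymerase, was higher by 0.41 (0.0243), and MCM5, RFC1 and MCM2 were higher by 0.34 (0.0114), 0.31 (0.00413) and 0.27 (0.00347).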
